A study of Arabidopsis thaliana with 2 samples.

Results

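The WRKY and VQ-motif gene families of Arabidopsis thaliana were described in whole seedlings of the crwn1 crwn2 double mutant and of wild type. Members were the loci whose product name in the deposited annotation contained WRKY or VQ motif, which gave 60 WRKY-named and 26 VQ-named loci, 86 of the 21808 loci with a read in either library. Single loci were selected on their names alone. The families themselves were chosen by the read and RPKM ratios of this same pair of libraries, so the values below describe them and no test was made. The RefSeq table of the TAIR10.1 assembly matched all 86 loci and gave 2 of the WRKY-named ones another identity. It calls AT4G31805 POLAR, a polarity protein of the stomatal lineage, and AT5G35738 a transcribed pseudogene.

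WRKY proteins are plant transcription factors with a conserved WRKYGQK peptide and a zinc finger, and they bind the W box, a short DNA element with the core TTGAC. Many of their genes are transcribed within minutes of wounding, touch or recognition of microbial molecules, partly under their own products and under mitogen-activated protein (MAP) kinases. VQ proteins are small partners named for a short valine-glutamine motif, through which several of them bind WRKY factors and alter their activity.

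Polyadenylated RNA was sequenced from 1 library of crwn1 crwn2 seedlings and 1 library of wild-type seedlings, both taken at 10 days. The mutated genes code for coiled-coil proteins of the lamina that lines the plant nucleus. The sources used here name neither the alleles, nor the wild-type accession, nor the number of seedlings pooled. The crwn1 crwn2 library held 2203650 uniquely placed reads over 20701 loci and the wild-type library 2094440 reads over 20223 loci, with a median of 26 reads per locus in crwn1 crwn2 and 24 in wild type. CRWN1 had 57 reads in crwn1 crwn2 and 1021 in wild type, and CRWN2 had 9 in crwn1 crwn2 and 148 in wild type. With 1 library per genotype, the mutations cannot be told apart from growth, harvest or library preparation, and in bulk tissue fewer cells of a type and less RNA per cell cannot be told apart.

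The data can be read beside the sequence upstream of the genes the results turn on. The 300 bases before the RefSeq gene start (assembly TAIR10.1) are shown 5′ to 3′ for WRKY33 and WRKY40, the WRKY loci with the highest mean level, and for WRKY22 and WRKY29, members of 1 structural group that differed in opposite directions. Capitals mark each match to the W-box forms TTGACC and TTGACT on either strand, a reverse-strand match reading GGTCAA or AGTCAA.
WRKY33, chr2:16107935-16108234, plus strand: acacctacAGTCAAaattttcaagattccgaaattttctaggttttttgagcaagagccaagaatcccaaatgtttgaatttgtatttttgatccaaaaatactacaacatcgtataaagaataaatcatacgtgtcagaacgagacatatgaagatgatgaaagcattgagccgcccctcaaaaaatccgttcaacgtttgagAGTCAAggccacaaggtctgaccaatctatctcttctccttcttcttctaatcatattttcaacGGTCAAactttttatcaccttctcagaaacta
WRKY40, chr1:30383261-30383560, plus strand: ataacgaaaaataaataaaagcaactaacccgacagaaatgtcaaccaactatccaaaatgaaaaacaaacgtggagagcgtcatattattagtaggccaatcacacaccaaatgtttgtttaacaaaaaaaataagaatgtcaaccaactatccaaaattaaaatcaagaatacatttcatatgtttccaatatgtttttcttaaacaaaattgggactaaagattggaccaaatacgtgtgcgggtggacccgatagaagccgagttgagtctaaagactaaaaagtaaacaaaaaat
WRKY22, chr4:524250-524549, minus strand: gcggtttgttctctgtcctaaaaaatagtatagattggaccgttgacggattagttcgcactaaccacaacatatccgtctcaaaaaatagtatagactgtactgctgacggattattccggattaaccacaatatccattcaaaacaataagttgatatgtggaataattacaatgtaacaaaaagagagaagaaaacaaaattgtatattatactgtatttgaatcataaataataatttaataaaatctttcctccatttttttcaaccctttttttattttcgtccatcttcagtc
WRKY29, chr4:12291332-12291631, plus strand: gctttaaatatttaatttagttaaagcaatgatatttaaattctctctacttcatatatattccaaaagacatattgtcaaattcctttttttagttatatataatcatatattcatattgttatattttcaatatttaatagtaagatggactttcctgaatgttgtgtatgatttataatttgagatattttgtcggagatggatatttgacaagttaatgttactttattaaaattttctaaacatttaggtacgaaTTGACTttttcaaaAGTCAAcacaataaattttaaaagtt
WRKY33, lower in crwn1 crwn2, held 3 matches, the nearest to the start lying 32 to 27 bases before it. WRKY40 and WRKY22, both also lower, held 0 matches in this window. WRKY29, higher in crwn1 crwn2, held 2 matches.

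Of the WRKY-named loci with a window, 23 of 59 (39%) held at least 1 such match, including 4 of the 8 that were lower in crwn1 crwn2, 14 of the 33 that were not called and 1 of the 3 that were higher. Among VQ-named loci, 10 of 26 (38.5%) held one. Across the annotation, 32.3% of 27443 protein-coding promoters of the same length did. Of all loci called lower 38.1% held a match, and of all called higher 29.6% did. A match describes these letters only, and its absence says nothing about binding.

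Levels are given as reads and as RPKM, which scales reads to model length and library total, with the mutant set over wild type as a log2 ratio of RPKM + 1. Measured loci are those with both an RPKM of 1 or more and 10 reads or more in 1 of the libraries or both. A call needed a 2-fold difference or more together with an exact 95% binomial (Clopper-Pearson) interval of the read ratio that left out equality. Folds printed with an interval are ratios of reads scaled to library total, whereas the 2-fold threshold was applied to RPKM + 1, which brings low levels closer to equality. The intervals cover counting error only, since 1 library per genotype gives no spread between replicates. PCR copies are not independent molecules, so the intervals may be too narrow even for counting error.

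Of the 60 WRKY-named loci, 44 were measured, 8 fell in crwn1 crwn2 and 3 rose, while 33 were not called. Of the measured WRKY-named loci 18.2% were thus lower and 6.82% higher, against 4.53% and 6.34% of all 14393 measured loci. Because the families were picked with this contrast known, nothing is read from that difference. The 8 that fell were WRKY40, WRKY48, WRKY33, WRKY22, WRKY26, WRKY18, WRKY75 and WRKY46. The 3 that rose were WRKY29, WRKY54 and POLAR, so 2 of them are WRKY factors by the reference table. Of the called loci, WRKY18 and WRKY75 passed the floor in wild type only, and WRKY54 and POLAR in crwn1 crwn2 only. These loci were thus measured only through the library in which they were higher. The median log2 ratio of the 44 was 0.00 (-0.12 after TMM scaling, which equalises the bulk of genes between libraries), against 0.12 over all measured loci, and 13 uncalled members lay below 0 and 20 above, as did 5191 and 7638 uncalled loci of the whole table. After TMM scaling 17 uncalled members lay below 0 and 14 above.

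**Figure D1:**
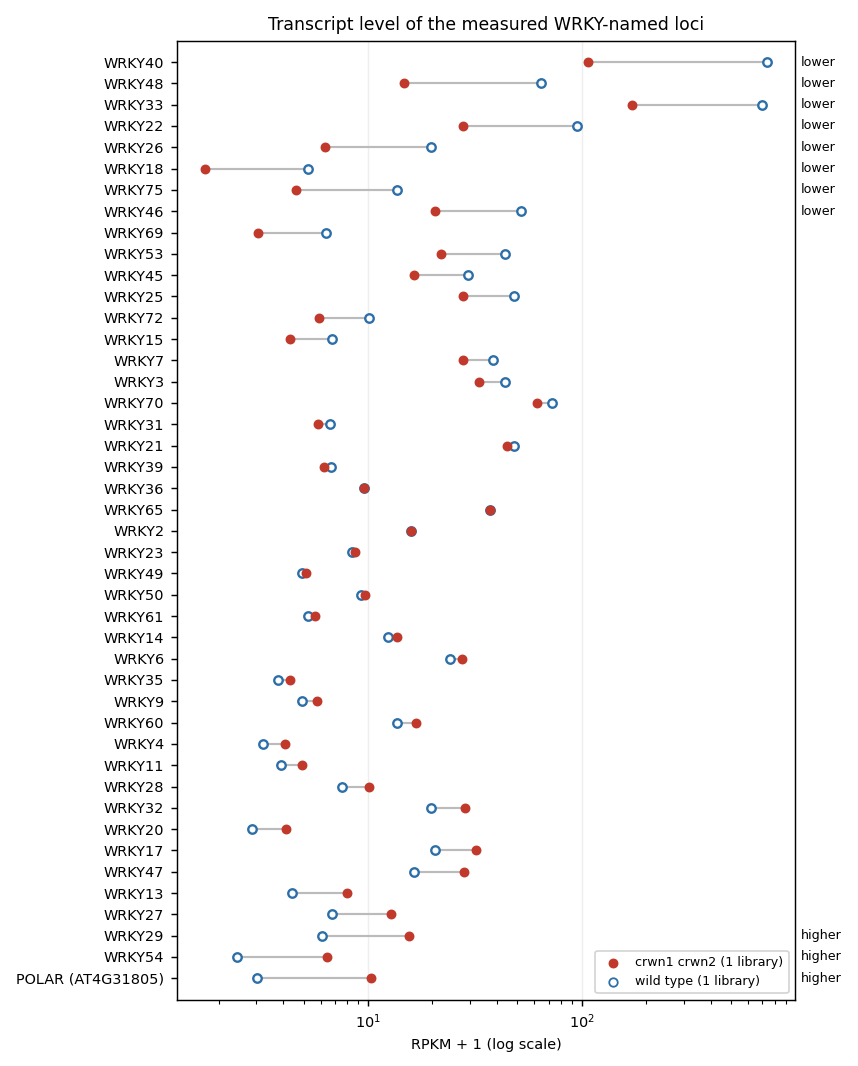
RPKM + 1 on a log axis for the 44 measured WRKY-named loci, ordered by log2 ratio; filled red points are the crwn1 crwn2 library, open blue points the wild-type library, and the words at the right mark called loci. WRKY40 and WRKY33 stand furthest to the right in both libraries, and WRKY40 shows the widest gap (log2 ratio -2.77), while most of the middle of the plot shows pairs that nearly coincide.

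The family's reads were concentrated in a pair of members. WRKY40 and WRKY33 together held 995 reads in crwn1 crwn2 and 4596 in wild type, which were 32.5% of all WRKY reads in crwn1 crwn2 and 64.4% in wild type. The family as a whole had 3063 reads in crwn1 crwn2 and 7136 in wild type, a depth-scaled ratio of 0.408 (95% counting interval 0.391 to 0.426). Without that pair it had 2068 reads in crwn1 crwn2 and 2540 in wild type, a ratio of 0.774 (0.730 to 0.820). The lower sum thus lay mostly in WRKY40 and WRKY33, which a median over loci does not show.

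WRKY40 (AT1G80840, chromosome 1, 30383691 to 30385499 on TAIR10 as deposited) encodes a group IIa factor that acts as a repressor in defense and abscisic acid signaling. It had 280 reads and an RPKM of 106 in crwn1 crwn2, against 1834 reads and an RPKM of 733 in wild type. That made it 6.89-fold lower (6.07 to 7.84), a log2 ratio of -2.77, the most negative among WRKY loci. It was the WRKY locus with the highest RPKM in wild type and came after WRKY33 in crwn1 crwn2.

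WRKY33 (AT2G38470, chromosome 2, 16108361 to 16110766) encodes a group I factor phosphorylated by the MAP kinases MPK3 and MPK6 and needed for resistance to necrotrophic fungi and for synthesis of the antimicrobial camalexin. It had 715 reads and an RPKM of 171 in crwn1 crwn2, against 2762 reads and an RPKM of 693 in wild type, 4.06-fold lower (3.74 to 4.42). The log2 ratio was -2.02. Its RefSeq span overlaps that of AT2G38480 on 26 bases, and that neighbour had 7 reads in crwn1 crwn2 and 19 in wild type.

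WRKY22 (AT4G01250, chromosome 4, 522604 to 524216) and WRKY29 (AT4G23550, chromosome 4, 12291820 to 12293096) are group IIe factors placed together below the MAP kinase cascade of flagellin perception. They went opposite ways. WRKY22 had 72 reads and an RPKM of 26.8 in crwn1 crwn2, against 241 reads and an RPKM of 94.4 in wild type, 3.52-fold lower (2.70 to 4.65). WRKY29 had 30 reads and an RPKM of 14.6 in crwn1 crwn2, against 10 reads and an RPKM of 5.11 in wild type, 2.85-fold higher (1.36 to 6.54). Their log2 ratios of -1.78 and 1.35 lay 3.13 apart.

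WRKY48 (AT5G49520, chromosome 5, 20090776 to 20093346) encodes a group IIc factor known to dampen basal resistance to bacteria. It had 54 reads and an RPKM of 13.7 in crwn1 crwn2, against 237 reads and an RPKM of 63.1 in wild type, 4.62-fold lower (3.42 to 6.33). WRKY75, a group IIc factor of phosphate starvation and leaf senescence, had 6 reads in crwn1 crwn2 and 20 in wild type, with a log2 ratio of -1.57. Its interval, 1.36-fold to 10.7-fold lower, is wide at that depth.

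Group IIa has 3 members in Arabidopsis, which can pair with one another, and they did not move as 1 block. WRKY18 had 2 reads in crwn1 crwn2 and 11 in wild type, and its reads covered only 5.30% of the model in crwn1 crwn2 and 6.91% in wild type. It was called lower, with an interval of 1.26-fold to 53.7-fold, but an RPKM floor of 5 removes it. WRKY60 had 42 reads and an RPKM of 15.8 in crwn1 crwn2, against 32 reads and an RPKM of 12.6 in wild type, and was not called (log2 ratio 0.30). The log2 ratio of WRKY40 was 3.07 below that of WRKY60.

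Among group I factors, WRKY25 and WRKY26 act with WRKY33 in heat tolerance. WRKY26 had 15 reads in crwn1 crwn2 and 51 in wild type, a log2 ratio of -1.65, and was called lower. WRKY25 had 95 reads in crwn1 crwn2 and 159 in wild type and was not called (log2 ratio -0.79), although its interval, 1.36-fold to 2.30-fold lower, excluded equality. WRKY3 (150 reads in crwn1 crwn2 and 190 in wild type) and WRKY32 (99 in crwn1 crwn2 and 64 in wild type) were not called, at log2 ratios of -0.40 and 0.53. Their intervals also excluded equality, at 1.07-fold to 1.66-fold lower for WRKY3 and 1.06-fold to 2.05-fold higher for WRKY32.

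Group III holds factors of salicylic acid signaling and senescence, and its measured members went different ways. WRKY46 (chromosome 2, 19043414 to 19044826) had 53 reads and an RPKM of 19.7 in crwn1 crwn2, against 131 reads and an RPKM of 51.2 in wild type, 2.60-fold lower (1.88 to 3.65). WRKY53, a regulator of leaf senescence, had 70 reads in crwn1 crwn2 and 135 in wild type and was not called. It was 2.03-fold lower in scaled reads (1.51 to 2.75) but its log2 ratio of RPKM + 1, -0.99, lay just short of the threshold. WRKY70, which represses salicylic acid synthesis and senescence with WRKY54, had 149 reads and an RPKM of 60.9 in crwn1 crwn2, against 166 reads and an RPKM of 71.3 in wild type, and was not called. WRKY54 rose, on few reads. It had 16 reads in crwn1 crwn2 and 4 in wild type, 3.80-fold higher, with an interval of 1.23-fold to 15.6-fold.

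POLAR (AT4G31805) had 29 reads in crwn1 crwn2 and 6 in wild type, 4.59-fold higher (1.87 to 13.5). Its product name puts it among the WRKY loci, yet its known role is in asymmetric division of stomatal precursor cells. Its RefSeq span overlaps 310 bases of AT4G31810, which had 86 reads in crwn1 crwn2 and 50 in wild type. No statement of strand was found for the libraries, so reads of the overlap cannot be assigned to either gene.

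By structural group, as known from the family's phylogeny, calls were spread over 5 of the 7 groups. Group I had 2 of 8 measured loci lower, group IIa 2 of 3, group IIc 2 of 8, group IIe 1 of 7 and group III 1 of 4. The 2 WRKY factors that rose were 1 of the 7 in group IIe and 1 of the 4 in group III. Groups IIb and IId had 7 and 6 measured loci with 0 calls in either direction, beside 4.53% lower and 6.34% higher over all measured loci, and median log2 ratios of 0.11 and -0.11. Thus groups IIe and III each held members called in opposite directions.

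**Figure D2:**
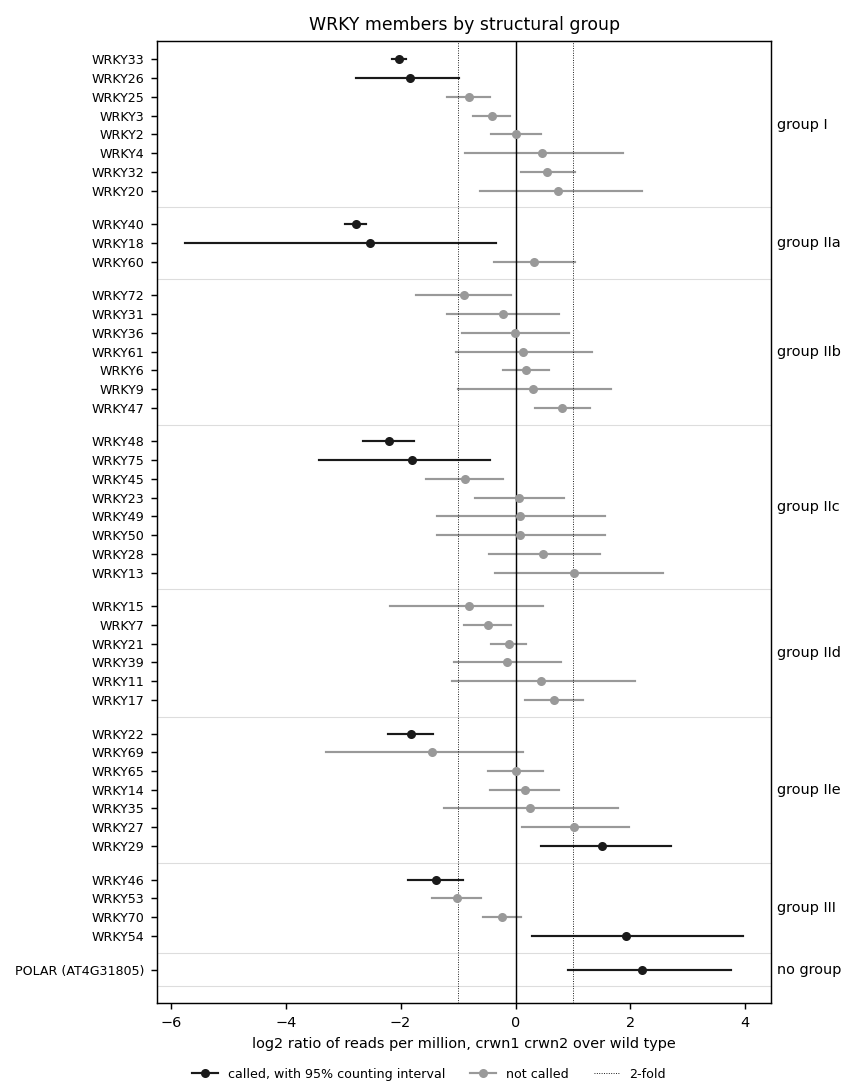
Log2 ratio of reads scaled to library total, crwn1 crwn2 over wild type, for the 44 measured WRKY-named loci by structural group; points are the ratios, bars the exact 95% counting intervals, black marks called loci, and dotted lines mark 2-fold. Intervals are narrow for WRKY33 and WRKY40 and wide for loci of few reads such as WRKY18. Of the 44 intervals, 14 lie wholly below 0 and 7 wholly above it. Over all 14393 measured loci, 1806 intervals lie wholly below 0 and 3230 wholly above it.

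Of the uncalled WRKY loci with high levels, WRKY21, a calmodulin-binding group IId factor, had 177 reads and an RPKM of 43.5 in crwn1 crwn2, against 183 reads and an RPKM of 47.3 in wild type. WRKY6, a factor of senescence and phosphate transport, had 116 reads in crwn1 crwn2 and 97 in wild type. WRKY65 had 80 reads in crwn1 crwn2 and 76 in wild type, an RPKM of 36.2 in either. These members showed nearly equal levels in the libraries. A few others were higher in crwn1 crwn2 with intervals that excluded equality but log2 ratios of RPKM + 1 under the threshold, among them WRKY47 (109 reads in crwn1 crwn2 and 59 in wild type, log2 ratio 0.77), WRKY17 (90 in crwn1 crwn2 and 54 in wild type, 0.64) and WRKY27 (34 in crwn1 crwn2 and 16 in wild type, 0.90). Of the 44 measured WRKY-named loci 7 had intervals wholly above equality, beside 3230 of all 14393 measured loci. By scaled reads WRKY27 was 2.02-fold higher (1.08 to 3.92). With a pseudocount of 0.1, not 1, the WRKY calls numbered 9 lower and 4 higher, beside 4.97% and 7.29% of all measured loci.

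A further 16 WRKY-named loci lay below the floor, none with more than 7 reads in a library. They included WRKY30, WRKY38, WRKY51 and WRKY62, with 1, 3, 0 and 0 reads in crwn1 crwn2 and 2, 5, 2 and 1 in wild type. No direction was detectable for them at this depth. Another 5 WRKY proteins of the reference table were listed under other product names and were not members. The most read of these, the immune receptor gene RRS1, had 45 reads in crwn1 crwn2 and 39 in wild type. Another 9, WRKY41 among them, were not analysed here.

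Of the 26 VQ-named loci, 17 were measured, 2 fell in crwn1 crwn2 (11.8%), 0 rose and 15 were not called, 7 of them below 0 and 8 above (10 and 5 after TMM scaling). Over all measured loci 4.53% were lower and 6.34% higher. Both VQ loci that fell passed the floor in wild type only. Their median log2 ratio was -0.11, against 0.12 over all measured loci. The family had 1305 reads in crwn1 crwn2 and 1900 in wild type, a depth-scaled ratio of 0.653 (0.608 to 0.701). AT3G56880 alone held 62.7% of them in crwn1 crwn2 and 70.5% in wild type, and without it the ratio was 0.827 (0.731 to 0.935).

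AT2G22880 (chromosome 2, 9741119 to 9741463) had the most negative ratio of either family. It had 8 reads and an RPKM of 10.5 in crwn1 crwn2, against 108 reads and an RPKM of 149 in wild type, 14.2-fold lower (6.96 to 33.7), a log2 ratio of -3.71. In wild type it had the second highest RPKM among VQ-named loci. All 345 bases of its RefSeq span lie inside AT2G22870 on the opposite strand, which had 64 reads in crwn1 crwn2 and 44 in wild type and was not called (log2 ratio 0.45). As no strand is stated, none of the reads placed on AT2G22880 can be assigned to either gene, so its ratio is uncertain.

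AT1G21326 (chromosome 1, 7469002 to 7469721) had 0 reads in crwn1 crwn2 and 13 reads, an RPKM of 8.62, in wild type. Against a floor of 3 counts in crwn1 crwn2, a CPM (count scaled to library total) of 1.36, it was 4.56-fold lower. By the 95% counting interval it was at least 3.21-fold lower.

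AT3G56880, the VQ-named locus with the highest RPKM in either library, had 818 reads and an RPKM of 353 in crwn1 crwn2, against 1340 reads and an RPKM of 609 in wild type. It was not called, with a log2 ratio of -0.78 and an interval of 1.58-fold to 1.88-fold lower. MVQ3, one of the VQ proteins phosphorylated by MAP kinases, had 120 reads in crwn1 crwn2 and 112 in wild type, and MVQ4 had 22 in crwn1 crwn2 and 19 in wild type. JAV1, a VQ repressor of jasmonate defense that is degraded on wounding, had 36 reads in crwn1 crwn2 and 34 in wild type. VQ9, a partner of WRKY8 in salt tolerance, had 48 reads in crwn1 crwn2 and 51 in wild type. Levels of these 4 partners were near equal in the libraries.

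The partners best known to bind WRKY33 were also read. SIB1 and SIB2, sigma factor-binding proteins that activate WRKY33, had 33 and 54 reads in crwn1 crwn2 and 41 and 32 in wild type. Neither was called, at log2 ratios of -0.37 and 0.65, and the interval for SIB2 ran from 1.02-fold to 2.57-fold higher. All 920 bases of the RefSeq span of SIB2 lie inside AT2G41178 on the opposite strand, a gene not listed in either library. As no strand is stated, the reads placed on SIB2 cannot be assigned to either gene. MKS1, which links WRKY33 to the kinase MPK4, fell, with 34 reads in crwn1 crwn2 and 80 in wild type (log2 ratio -1.26). CAMBP25, a calmodulin-binding VQ protein of osmotic stress, fell as well, with 125 reads in crwn1 crwn2 and 316 in wild type (log2 ratio -1.40). SIB1, MKS1 and CAMBP25 carry other product names in the files and are not counted among the 26. IKU1, a VQ protein of seed size, had 7 reads in crwn1 crwn2 and 4 in wild type and lay below the floor, as did another 8 VQ-named loci with at most 8 reads in a library.

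**Figure D3:**
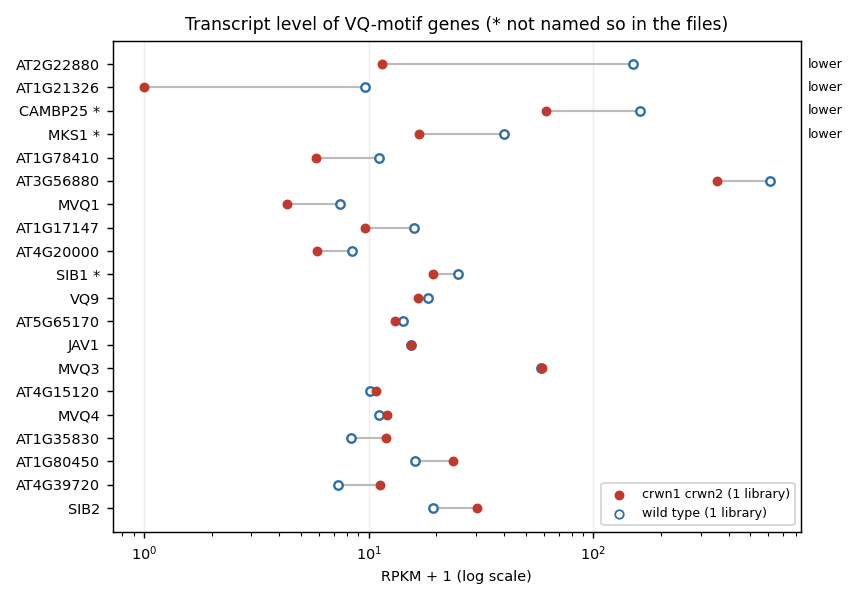
RPKM + 1 on a log axis for the 17 measured VQ-named loci and for SIB1, MKS1 and CAMBP25, which carry other product names (asterisks); filled red points are the crwn1 crwn2 library and open blue points the wild-type library. AT2G22880 and AT1G21326 show the widest gaps, AT3G56880 stands alone at the right, and most other pairs lie close together.

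The process terms of the deposited annotation, which the choice of members had not used, gave differing pictures. Of the measured WRKY-named loci, 15 carried the process term response to carbohydrate stimulus, and 6 of these were lower and 1 higher, with a median log2 ratio of -0.66. Those 6 were WRKY40, WRKY48, WRKY33, WRKY22, WRKY18 and WRKY46. Of the other 29, 2 were lower and 2 higher. The WRKY loci with the term were thus called lower at 40%, near the share among all loci with it, where 54 of 139 measured (38.8%) were lower. Without the term 4.2% of all loci were. For the term defense response, 7 measured WRKY-named loci had 2 lower, 1 higher and a median of 0.43, against 6 lower, 2 higher and a median of -0.01 among the other 37. Over all loci with that term 28 of 277 were lower. The terms are no independent evidence, since all genes share the 2 libraries.

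Of the MAP kinase genes upstream, 9 were listed, 6 were measured, 5 had ratios below 0 and MPK3 alone fell (beside 4.53% of all measured loci), with 495 reads in crwn1 crwn2 and 1415 in wild type (log2 ratio -1.58). MPK6 had 286 reads in crwn1 crwn2 and 383 in wild type, and MPK4 had 181 in crwn1 crwn2 and 186 in wild type. MKK4 and MKK5 act on MPK3 and MPK6. MKK4 had 67 reads in crwn1 crwn2 and 118 in wild type, with a log2 ratio of -0.86, and MKK5 had 126 in crwn1 crwn2 and 93 in wild type. MEKK1, which acts above such kinases, had 103 in crwn1 crwn2 and 141 in wild type. Of the 6 intervals 4 lay wholly on the lower side, those of MPK3, MPK6, MKK4 and MEKK1, and the list's median was -0.50. Over all 14393 measured loci 1806 intervals lay wholly on the lower side and 5843 ratios lay below 0, with a median of 0.12.

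Genes reported elsewhere as WRKY targets went both ways. Of 18 listed, 13 were measured, 5 fell, 3 rose and 5 gave no call, beside 4.53% lower and 6.34% higher over all measured loci. Their median log2 ratio was -0.32. Those that fell furthest were the jasmonate repressor genes JAZ8 (2 reads in crwn1 crwn2 and 24 in wild type, log2 ratio -3.03) and JAZ5 (28 in crwn1 crwn2 and 131 in wild type, -2.20) and the redox-responsive factor gene RRTF1 (80 in crwn1 crwn2 and 534 in wild type, -2.77). JAZ1 and the ethylene synthesis gene ACS6 also fell, the second with 704 reads in crwn1 crwn2 and 1632 in wild type. The salicylic acid marker PR1 rose, with 47 reads in crwn1 crwn2 and 10 in wild type, as did the camalexin pathway genes CYP71A12 (61 in crwn1 crwn2 and 16 in wild type) and CYP71A13 (18 in crwn1 crwn2 and 6 in wild type). After TMM scaling 2 of these 3 were still called. JAZ8 passed the floor in wild type only, and CYP71A13 in crwn1 crwn2 only. Each was thus measured only through the library in which it was higher. PAD3, the last step of camalexin synthesis and a WRKY33 target, had 29 reads in crwn1 crwn2 and 30 in wild type and was not called.

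The listed genes transcribed within minutes of touch or wounding were lower in the same library. Of 16 listed, 15 were measured, 11 fell (13 after TMM scaling), 0 rose and all 15 had ratios below 0, with a median of -1.39. Over all measured loci 4.53% were lower (5.74% after TMM scaling). This list, like the other gene lists, was written with earlier results of these data known, so nothing is read from its counts. CMPG1, with 4 reads in crwn1 crwn2 and 12 in wild type, passed the floor in wild type only. The deposited term response to wounding marked 5 measured loci, none of them WRKY or VQ, with 0 calls and a median of -0.39. TCH4, a cell wall enzyme, had 932 reads in crwn1 crwn2 and 4694 in wild type, and the calmodulin-like gene CML37 had 18 in crwn1 crwn2 and 103 in wild type. The ethylene response factor gene ERF6 had 96 in crwn1 crwn2 and 413 in wild type, and the zinc finger gene SZF1 had 913 in crwn1 crwn2 and 3113 in wild type. Summed, the list had 5287 reads in crwn1 crwn2 and 15702 in wild type. Handling or wounding at harvest cannot be told apart from genotype, and its part in the WRKY and VQ values was not tested.

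Some tissue markers and clock genes were called too, beside 4.53% lower and 6.34% higher over all measured loci. Of 7 measured root markers 5 rose, with a median log2 ratio of 2.42, led by the root hair genes EXPA18, with 24 reads in crwn1 crwn2 and 0 in wild type, EXPA7, with 14 in crwn1 crwn2 and 0 in wild type, and PRP3, with 96 in crwn1 crwn2 and 7 in wild type. The 5 root markers that rose passed the floor in crwn1 crwn2 only, so the list's count and median rest mostly on such loci. The root endodermis marker SCR had 232 reads in crwn1 crwn2 and 172 in wild type and was not called. PYK10, a beta-glucosidase gene of roots, had 10188 reads in crwn1 crwn2 and 8598 in wild type and was not called. The root list summed to 10626 reads in crwn1 crwn2 and 8784 in wild type, and without PYK10 to 438 in crwn1 crwn2 and 186 in wild type. Of 7 measured leaf markers 1 fell, the antenna protein gene LHB1B2, with a list median of -0.23 and summed reads of 37453 in crwn1 crwn2 and 55798 in wild type. The photosynthesis genes CAB1, CAB3 and PSBO1 were not called, at 1.72-fold, 1.81-fold and 1.18-fold lower, with intervals that excluded equality. RBCS1A, DRT112 and RCA were not called either, at 1.41-fold, 1.34-fold and 1.19-fold higher, also with intervals that excluded equality. Reads covered only 10.05% of the RBCS1A model in either library. For RCA they covered 5.13% in crwn1 crwn2 and 5.07% in wild type, so both ratios rest on a small part of the transcript. LHCA1, another antenna gene, had 1 read in crwn1 crwn2 and 0 in wild type. Of 7 measured clock genes 2 fell, PRR7 (32 reads in crwn1 crwn2 and 104 in wild type) and GI (23 in crwn1 crwn2 and 53 in wild type), with a median of -0.84. The part of tissue makeup or time of harvest in the WRKY and VQ values was not tested.

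**Figure D4:**
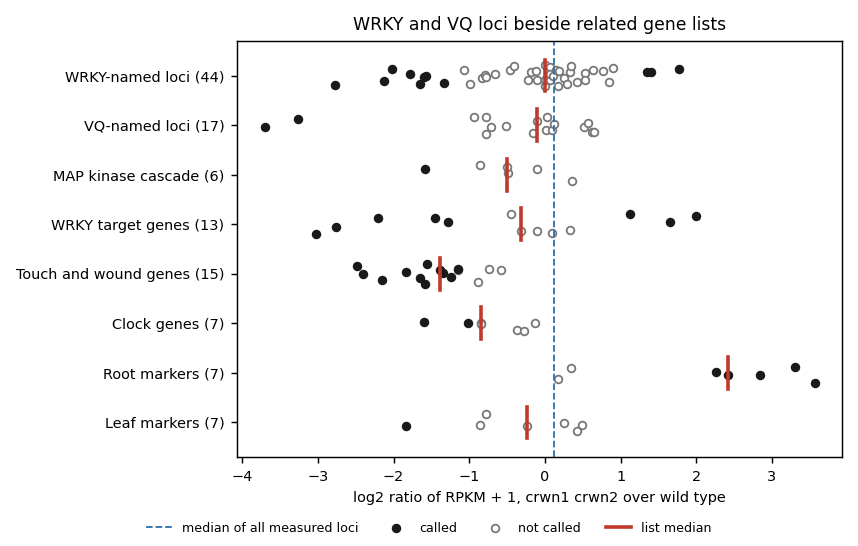
Log2 ratio of RPKM + 1, crwn1 crwn2 over wild type, for measured loci of the WRKY and VQ families and of 6 related lists; filled points are called, open points are not, red bars are list medians, and the dashed line is the median of all measured loci at 0.12. The listed touch and wound genes lie wholly below 0, at a median of -1.39, but that list was chosen with earlier results of these data known. The WRKY and VQ families spread to either side of 0.

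Reads were placed unevenly along some members. In WRKY18, WRKY15, WRKY39, WRKY26, WRKY11 and WRKY4, 6 of the 44, and in the VQ gene MVQ1, reads covered less than 0.5 of the length expected of the same number placed at random. Of all measured loci 11.2% did so. Of the called loci, WRKY18 and WRKY26 were among them, so their levels rest on part of the transcript. The other called WRKY and VQ loci were covered more evenly, and without the low-coverage members 6 WRKY loci were lower and 3 higher. WRKY39, WRKY26, WRKY11, WRKY4 and MVQ1 had several listed models, whose shared reads may be uncounted, so their levels may be underestimates. WRKY18 and WRKY15 had 1 listed model. WRKY20 and WRKY69 also had several, with coverage at 0.63 and 0.51 of that expected.

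**Figure D5:**
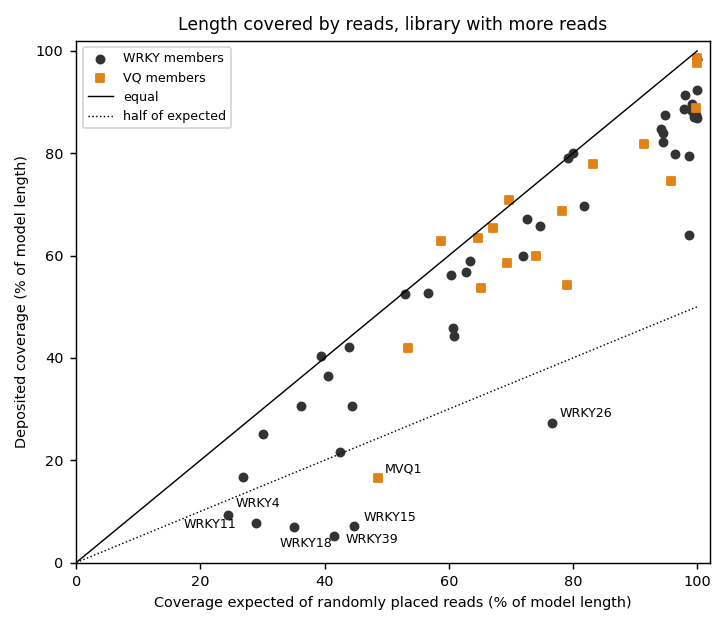
Percent of model length covered by reads in the library with more reads, against the percent expected of randomly placed reads, for the 44 measured WRKY-named loci (circles) and 17 VQ-named loci (squares); lines mark equality and 0.5 of expected. The 7 labelled loci lie below the dotted line, WRKY26 furthest to the right of them.

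The number of calls depended on scaling and threshold. TMM scaling moved the median of all measured loci by -0.13 on the log2 scale, to -0.01. It moved the WRKY median by about as much, to -0.12, and put the VQ median at -0.23. Relative to the median of all loci, the WRKY median was -0.11 with or without it. An RPKM floor of 5 also gave a WRKY median below 0, of -0.11. With TMM scaling 10 WRKY loci were lower, WRKY53 and WRKY69 joining, and 3 higher, against 5.74% and 4.8% of all measured loci. At 1.5-fold 12 WRKY loci were lower and 6 higher, and 3 VQ loci lower and 1 higher, against 8.3% and 13.8% of all. At 4-fold WRKY40, WRKY48 and WRKY33 and both lower VQ loci were still called lower and 0 were higher, against 0.75% and 0.896% of all.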

How the data were processed

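Polyadenylated RNA of 10-day seedlings was sequenced in 1 crwn1 crwn2 and 1 wild-type library. Counts deposited by the authors are reads placed uniquely on each transcript model, per the file headers. RPKM as deposited matched the counts over model length and header total, and the authors' coverage column holds the percent of each model's length under reads. The submitters' processing notes name the TAIR10 build; no source used here names the aligner, counting rule, strand or read filters. A lone read covered 49 bases of its model, and the files list only models with reads.

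Reads and RPKM were summed per locus, and the log2 ratio used a pseudocount of 1. Calls over all 14393 measured loci followed the rule given above; there was no test and no p-value for genotype, and the calculation was checked on simulated counts. A count of 0 was set against a floor of 3 counts (CPM 1.36 in crwn1 crwn2, 1.43 in wild type). TMM factors, from edgeR 4.0.16 in R 4.3.3, were 1.05 in crwn1 crwn2 and 0.954 in wild type. Other steps used Python 3.11.15, pandas 2.3.3 and scipy 1.17.1. Promoter windows came from RefSeq TAIR10.1, in which 98.7% of nuclear loci held the deposited span of the same locus. Starts can differ, and those of WRKY33, WRKY40, WRKY22 and WRKY29 all do, so windows are those of RefSeq. For these genes the bases between the RefSeq and the deposited start were not searched. Of the 86 members, 7 WRKY-named and 1 VQ-named locus had several listed models, whose shared reads may be uncounted.

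Members, gene lists and structural groups were chosen with earlier results of these data known. Named were CRWN1 and CRWN2, every called member, the 6 members of each family with the highest mean RPKM, the list of other VQ partners, members with at least 10 reads in 1 library only, and up to 4 called genes of each other list with the largest ratios. Other named genes were chosen after their values were seen. Alternatives were a pseudocount of 0.1, no floor, an RPKM floor of 5, TMM scaling, CPM, 1.5-fold and 4-fold thresholds and loci with 1 listed model. Leaving out POLAR with the pseudogene, and leaving out members of low coverage, were added after seeing the data.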

Additional observations from a re-analysis of the deposited data

How the results depend on the processing

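A 1.5-fold threshold gave 6 WRKY-named loci called higher in crwn1 crwn2 in place of 3 and 1 VQ-named locus called higher in place of 0. Over all measured loci the share called higher was 13.8% at 1.5-fold, in place of 6.34%. A 4-fold threshold left 3 WRKY-named loci called lower in place of 8 and 0 called higher in place of 3. At 4-fold 0.75% of all measured loci were lower and 0.896% higher. In the other alternatives run, the number of WRKY-named loci called lower ranged from 6, without members of low coverage, to 12, at 1.5-fold. That of VQ-named loci was 2, or 3 at 1.5-fold. Of all measured loci 4.52% were lower without members of low coverage and 8.3% at 1.5-fold. Of 334 values of the 42 named genes under alternatives, 314 kept their sign and their side of the threshold, 17 lost the call and 2 gained one. The other 1, of MVQ3, which was not called, changed sign under TMM scaling, with a log2 ratio of 0.03 at first and -0.11 with it. Of the 17, 16 fell at the 4-fold threshold and 1, WRKY18, at an RPKM floor of 5. No paired analysis was possible because each genotype has 1 library. A median of 26 reads per locus in crwn1 crwn2 and 24 in wild type limits calls for weakly expressed members, and the spread between biological replicates is unknown.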
